A study of Mus musculus with 8 samples.

Results

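The genes described here are 10 early response genes of the AP-1, Egr and Nr4a families: Fos, Fosb, Fosl1, Fosl2, Jun, Junb, Egr1, Egr2, Atf3 and Nr4a1. They were taken by symbol from the 55276 gene symbols measured in fibro-adipogenic progenitors (FAPs), the mesenchymal cells of skeletal muscle that support its regeneration and can also give rise to fat and scar tissue. GFP+ FAPs, outside the lineage gate for blood and endothelial cells, were sorted from the tibialis anterior muscle of mice aged 4 to 6 months after freeze-pierce injury. Control mice were Osr1 flox/+ CAGG Cre+ and Osr1cKO mice were Osr1 flox/flox CAGG Cre+, and each genotype was sampled at 3 and at 7 days post injury (dpi) with 2 libraries per group, 8 in all. All mice received tamoxifen from the day of injury, and GFP is expressed from the recombined Osr1 allele, so the control cells also had 1 recombined allele and the comparison is of 1 remaining allele with none. CAGG-CreER is active in all tissues, so the allele could be recombined outside FAPs too. By RT-qPCR at 3 dpi the study detected Osr1 in FAPs but not in muscle stem cells or in blood and endothelial cells. It did not formally exclude a role in other cells, as the deletion was not specific to a cell type. By flow cytometry it found GFP only outside the blood and endothelial gate. It also reported several of the in vivo features in culture, where Osr1 was inactivated in FAPs alone. Each library at 3 dpi came from 1 mouse and each at 7 dpi from 4 pooled mice. Sequencing depth lay between 46401681 and 51096552 recovered fragments at 3 dpi and began at 36516619 at 7 dpi, and the sources used here name more than 1 sequencer, so day, pooling, depth and possibly sequencer cannot be told apart. The cells were released from muscle by enzymatic digestion at body temperature and sorted before RNA was taken. Levels in undisturbed muscle were not measured. Osr1 itself was at 105 and 91.0 TPM (the deposited unit, a share of all transcripts corrected for gene length) in control and 70.7 and 71.9 TPM in Osr1cKO FAPs at 3 dpi, and at 67.6 and 71.6 TPM and 64.4 and 60.8 TPM at 7 dpi. These values cover the whole gene, including exons outside the deleted one, so they do not measure the deletion. The study reported efficient loss of the floxed exon from the reads of these libraries.

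AP-1 is a dimer of basic leucine zipper proteins. Jun family proteins pair with each other or with Fos family proteins, and Atf3 is a stress-induced relative that can pair with Jun proteins. Egr1 and Egr2 are zinc finger factors, and Nr4a1 is an orphan nuclear receptor whose activity is set largely by how much of it is made. Most of these genes are transcribed within minutes of a growth factor, cytokine or stress signal from factors already present in the cell, among them CREB and serum response factor, and their transcripts are short-lived. In muscle they are known as part of the first response of cells to injury, and also as genes that dissociation of tissue can induce.

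Short stretches of the promoters are shown because 6 of the 8 members searched share TGACG, read on either strand. TGACG is the core of the CREB and ATF binding sequence. Egr1 and Fosl1 were not searched. The window ran from 250 bases before to 50 bases after each RefSeq transcript start on GRCm38.p6, and 23.0% of 27025 genes had TGACG in such a window. Capitals mark the match, and CGTCA is the same core on the other strand.
Fos, chr12:85473815-85473837, + strand: tccgcccagTGACGtaggaagtc
Fosb, chr7:19310092-19310114, − strand: agttgcgggTGACGcaagcgcgg
Junb, chr8:84978841-84978863, − strand: tcctgacagTGACGcgagccgcc
Egr2, chr10:67537805-67537827, + strand: gggcagcgaCGTCAcgggtattg
Atf3, chr1:191183327-191183349, − strand: atagcattaCGTCAgcctgggat
Nr4a1, chr15:101266797-101266819, + strand: ctctccatgCGTCAcggagcgct
Counted from the transcript start, the match begins at position -66 in Fos, -60 in Fosb, -106 in Junb, -40 in Nr4a1 and -7 in Atf3. Nr4a1 had 4 matches in its window and Fos and Egr2 had more than 1; the match nearest the start is printed. Jun had the longer sequence TGACNTCA, to which dimers of Jun and ATF proteins bind, at position -45.
Jun, chr4:95052252-95052275, − strand: cctcggggTGACATCAtgggctat
Jun was the only member with TGACNTCA, which 2708 of the 27025 genes had; TGACNTCA overlaps TGACG where N is G. The CArG box, bound by serum response factor, was found in the windows of Egr2 alone among the 8 members searched and in those of 1.81% of genes. Bases further upstream were not searched. Egr1 was not searched, and Egr2 had windows for more than 1 transcript start.
Egr2, chr10:67537790-67537813, + strand: cctcagtCCATATATGGgcagcga
The AP-1 sequence TGANTCA was in no window of the 8 members, against 8.97% of genes, and the Egr sequence GCGTGGGCG in none, against 0.707%. TATAAA was in the windows of Fos and Junb and of 15.7% of genes. These matches describe the letters of the windows and do not show that a factor was bound.

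Most of the early genes were abundant transcripts of these FAPs. Fos, Fosb, Jun, Junb, Egr1 and Nr4a1 were within the first 195 of the genes detected in every library, whereas Atf3 ranked between 85th and 595th, Fosl2 between 501st and 1185th, Egr2 between 687th and 1522nd and Fosl1 between 347th and 2034th. TPM values are corrected for gene length and can be compared between genes. The 10 members together made up 0.978% and 1.06% of all TPM in control FAPs at 3 dpi and 1.06% and 0.875% in Osr1cKO FAPs. At 7 dpi they made up 1.48% and 1.5% in control and 1.29% and 1.58% in Osr1cKO. Both groups at 7 dpi lay above both at 3 dpi without overlap. By mean TPM, Fos was the highest member in each of the 4 groups and Egr2 the lowest.

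Of the Fos family, Fos encodes the prototype partner of Jun proteins. Its deposited level was 1543 and 2465 TPM in control FAPs and 2435 and 1354 TPM in Osr1cKO FAPs at 3 dpi. By 7 dpi it was 3250 and 3140 TPM in control against 3099 and 3836 TPM in Osr1cKO. The groups of the same day overlapped, and every library at 7 dpi lay above every library at 3 dpi. Fos ranked between 19th and 93rd of all genes detected in a library. The gene lies at chr12:85473890-85477273 (mm10, + strand), and no other annotated gene overlaps it.

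Fosb, whose shorter splice form is known for its stability, stood at 1630 and 1777 TPM in control against 1655 and 1807 TPM in Osr1cKO FAPs at 3 dpi, and at 2102 and 2288 TPM and 2134 and 2252 TPM at 7 dpi. It was the least variable member of the Fos family, with at most a 1.09-fold gap between the libraries of a group, and again every value at 7 dpi lay above every value at 3 dpi.

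Fosl1, which encodes the Fos-related protein Fra-1, was far less even. It was at 442 TPM in replicate 1 and 81.9 TPM in replicate 2 of control FAPs at 3 dpi, a 5.4-fold gap. Over the 8 libraries, 1514 genes with values above 0 in that group had a mean of at least 100 TPM. Their median gap in that group was 1.17-fold and the 95th percentile 1.98-fold. Osr1cKO FAPs had 206 and 329 TPM at 3 dpi, inside the range of the control pair. At 7 dpi Fosl1 settled into a narrow range, 211 and 191 TPM in control against 249 and 248 TPM in Osr1cKO FAPs, the latter both higher. Exons of Fosl1 (chr19:5447547-5455946, + strand) share 1163 bases with Ccdc85b on the opposite strand. Ccdc85b moved the other way in the control pair, at 12.0 TPM in replicate 1 and 44.1 TPM in replicate 2, and stayed between 8.20 and 16.0 TPM in the other libraries. Whether strand was used in counting is not given in the sources used here.

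Fosl2, encoding Fra-2, was also split in control FAPs at 3 dpi, at 277 TPM in replicate 1 and 138 TPM in replicate 2, in the same order as Fosl1. The values in Osr1cKO FAPs, 160 and 183 TPM, lay between them. At 7 dpi the 4 libraries were close, with 262 and 239 TPM in control against 230 and 246 TPM in Osr1cKO. Fosl1 therefore held a changing share of the summed TPM of the 4 Fos family genes: 11.3% and 1.83% in the control libraries at 3 dpi, 4.63% and 8.96% in Osr1cKO, and 3.26% to 4.36% in the libraries at 7 dpi.

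**Figure D1:**
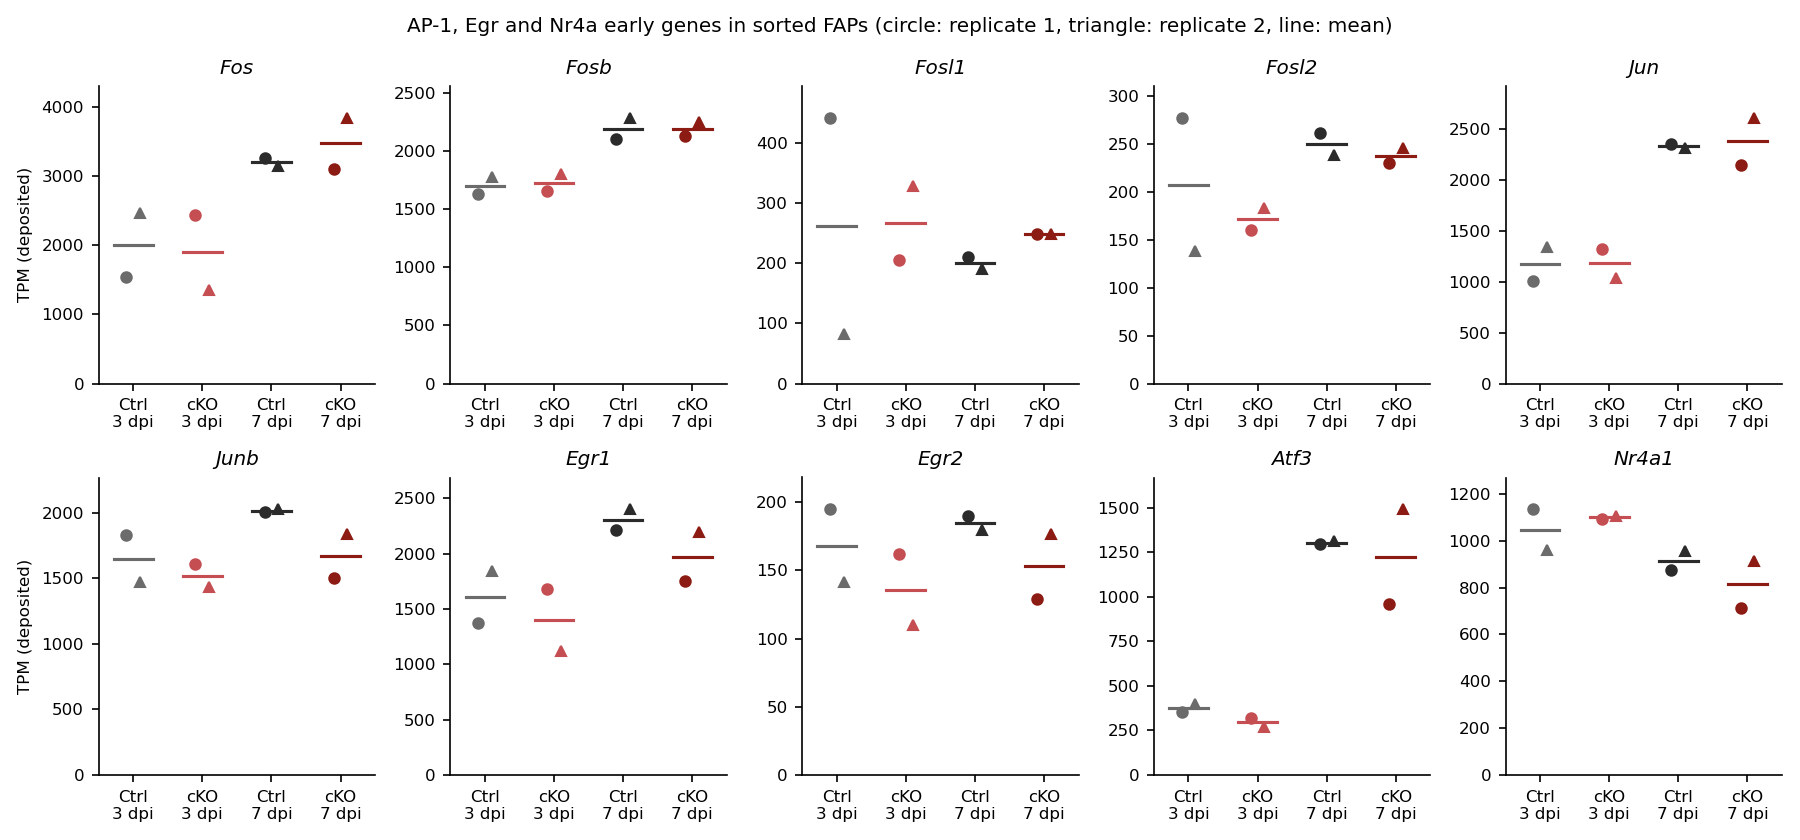
Deposited TPM of each of the 10 genes (y axis, linear from 0) in the 4 groups (x axis), with a circle for replicate 1, a triangle for replicate 2 and a line at the mean. Atf3 sits at 269 to 397 TPM at 3 dpi and 959 to 1491 TPM at 7 dpi, while the Fosl1 pair of control FAPs at 3 dpi spans 81.9 to 442 TPM.

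Of the Jun family, Jun encodes the partner of most Fos proteins and is itself an AP-1 target. It was measured at 1009 and 1343 TPM in control against 1324 and 1038 TPM in Osr1cKO FAPs at 3 dpi, so that the control pair enclosed the Osr1cKO pair. It reached, at 7 dpi, 2353 and 2313 TPM in control against 2145 and 2608 TPM in Osr1cKO, again overlapping between genotypes and well apart from 3 dpi. By mean TPM, Jun moved from the fifth place among the 10 members at 3 dpi to the second at 7 dpi. Jun is a single-exon gene at chr4:95049034-95052222 (− strand), and the antisense gene Junos, which shares 232 of its exon bases, was at 1.84 to 3.74 TPM.

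Junb, a weaker activator that often opposes Jun in proliferation, followed another course. It stood at 1828 and 1476 TPM in control against 1610 and 1432 TPM in Osr1cKO FAPs at 3 dpi. At 7 dpi the control libraries had 2007 and 2027 TPM and the Osr1cKO libraries 1501 and 1837 TPM, so that the genotypes did not overlap on that day. Prdx2, on the opposite strand with 173 shared exon bases, was at 110 to 191 TPM.

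Atf3, a stress-response factor that acts mainly as a repressor when it forms homodimers, showed the largest step between days. It was at 357 and 397 TPM in control against 321 and 269 TPM in Osr1cKO FAPs at 3 dpi, so both Osr1cKO libraries lay below both controls. By 7 dpi it was at 1296 and 1314 TPM in control against 959 and 1491 TPM in Osr1cKO. The Osr1cKO pair enclosed the control pair there. Atf3 stood apart from Nr4a1 in every group: below it at 3 dpi and above it at 7 dpi.

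Egr1, a zinc finger factor induced through serum response factor and its partners, was at 1370 and 1843 TPM in control against 1677 and 1120 TPM in Osr1cKO FAPs at 3 dpi. By 7 dpi it was at 2214 and 2401 TPM in control against 1753 and 2193 TPM in Osr1cKO, without overlap, but only just. Egr2, best known for its role in Schwann cells, where it drives myelination, was at 195 and 141 TPM and at 162 and 110 TPM at 3 dpi. At 7 dpi it was at 190 and 179 TPM in control against 129 and 177 TPM in Osr1cKO, so the genotypes were again apart, but only just. Sox10, another gene of Schwann cells, was at 0.0341 TPM or less in these libraries. The ratio of Egr1 to Egr2 ranged from 7.04 to 13.6 over the 8 libraries.

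Nr4a1 (Nur77) did not follow Fos and Jun, and neither did Fosl1. It was at 1134 and 962 TPM in control against 1094 and 1107 TPM in Osr1cKO FAPs at 3 dpi, and at 876 and 955 TPM and 713 and 914 TPM at 7 dpi. All 4 libraries at 7 dpi lay below all 4 at 3 dpi on the deposited scale. Over the 8 libraries its Pearson correlation with Fos was -0.48, and that of Fosl1 with Fos was -0.302, whereas Jun correlated with Fos at 0.956 and with Atf3 at 0.977. These coefficients describe 8 points that share the step between days, and no test was made of them.

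In the order of mean levels, Fos, Fosb, Junb and Egr1 headed the list in both groups at 3 dpi, with overlapping ranges between most neighbours. Jun and Nr4a1 came next and overlapped each other. A clear gap followed to Atf3, Fosl1, Fosl2 and Egr2. At 7 dpi Fos stood apart from all other members, Jun, Egr1 and Fosb overlapped as neighbours, and Junb, Atf3 and Nr4a1 followed with a gap between each in both genotypes. The lowest ranks were Fosl2, Fosl1 and Egr2 in control and Fosl1, Fosl2 and Egr2 in Osr1cKO.

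The first comparison asked whether these genes differed between Osr1cKO and control FAPs at 3 dpi. None of the 10 was called, where a call was a fold over 1.2 with an unadjusted p under 0.05. By limma, 6.28% of 15699 genes tested were called in this comparison, 2.2% higher and 4.08% lower, and none passed an adjusted p under 0.1; limma-voom on recovered fragments also called none of the 10. Atf3 came nearest. Its level was lower in Osr1cKO FAPs by a log2 difference of -0.37 (SE 0.160, 95% interval -0.78 to 0.04, limma, unadjusted p = 0.0665, Benjamini-Hochberg adjusted p = 0.808). It was the only member whose deposited TPM did not overlap between genotypes, as was so for 18% of all genes in this direction and 18.2% in the other. For Fos the log2 difference was -0.12 with a 95% interval from -1.14 to 0.90. The interval for Jun ran from -0.62 to 0.61 around -0.01, and that for Fosb from -0.47 to 0.48 around 0.01. For Egr1 and Egr2 the values were -0.23 and -0.33, for Junb -0.13, for Fosl2 -0.21 and for Nr4a1 0.06. Fosl1 had the widest interval, -1.62 to 2.48 around 0.43. The median over the members was -0.13, against -0.01 over all genes tested.

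The 3 dpi values depended on single libraries. Without control replicate 1, Fosl1 was called higher with a log2 difference of 1.64, and without control replicate 2 it was at -0.78. Fosl2 was called lower, at -0.72, without control replicate 2 and was at 0.29 without control replicate 1. These 2 genes are the ones that differed most between the control libraries.

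At 7 dpi the question was the same, with a call at a fold over 1.2 and an adjusted p under 0.1. No member was called by limma or by limma-voom, and 0.0664% of 16578 genes were called by limma, 0.0181% higher and 0.0483% lower. At an unadjusted p under 0.05 with the same fold, 3 members were lower in Osr1cKO FAPs and none higher, where 6.02% of all genes were lower and 5.1% higher. They were Junb, with a log2 difference of -0.42 (SE 0.134, adjusted p = 0.332 by limma), Egr2, with -0.42 (SE 0.139, adjusted p = 0.337), and Egr1, with -0.37 (SE 0.148, adjusted p = 0.396). Their unadjusted p values were 0.0231, 0.0256 and 0.0499. Fosl2 had an unadjusted p of 0.0452 at -0.21, below the fold limit, and Nr4a1 had -0.32 at 0.0563. Fosl1 was at 0.17 (95% interval -0.04 to 0.38), the only member above 0, and one of the 42.8% of genes whose deposited TPM was higher without overlap; Junb, Egr1 and Egr2 were among the 10.7% lower without overlap. Fos was at -0.03, Fosb at -0.14, Jun at -0.12 and Atf3 at -0.26.

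With 9 of 10 members below 0, the median was -0.24, against 0.00 over all 16578 genes. The libraries did not contribute evenly: Osr1cKO replicate 1 was the lowest of the 4 libraries of that day for 8 of the 10 members and the highest for Fosl1. Without it the median over the members was -0.15, and without Osr1cKO replicate 2 it was -0.35. Scaling also mattered, since the deposited TPM left unscaled put all genes 0.14 higher in Osr1cKO on the log2 scale, and Fos and Jun then lay above 0, at 0.11 and 0.02, while Junb stayed at -0.28, Egr2 at -0.29 and Egr1 at -0.23.

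Between 3 and 7 dpi, 5 members rose in control FAPs and none fell, with a call at a fold over 1.2 and an adjusted p under 0.1. In this comparison limma called 50.3% of 16525 genes, 28% higher and 22.3% lower. Atf3 rose most of the members, 3.99-fold (SE 0.145 on the log2 scale, adjusted p = 0.00428). Jun rose 2.31-fold, by 1.21 (SE 0.229, adjusted p = 0.0172). Fos rose by 0.91 (adjusted p = 0.0741), Egr1 by 0.74 (adjusted p = 0.0678) and Fosb by 0.57 (adjusted p = 0.0795), all by limma. Junb was at 0.50 (adjusted p = 0.113) and Fosl2 at 0.56 (adjusted p = 0.232). Egr2 was at 0.35, Fosl1 at 0.28 with an interval from -1.72 to 2.27, and Nr4a1 at 0.01. The median over the members was 0.56, against 0.09 over all genes. Deposited TPM at 7 dpi was higher without overlap for 6 members, against 33.5% of all genes, and lower for Nr4a1 only, against 41.4%.

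The calls for Atf3 and Jun held in all 9 other settings that kept every library, with log2 differences from 1.79 to 2.02 and from 1.0 to 1.23. Those for Fos, Fosb and Egr1 held in 5 of the 9. Leaving the deposited TPM unscaled shifted all genes in this comparison by -0.20, and Nr4a1 then lay at -0.19. The number of calls changed with the library left out. Without control replicate 2 of 7 dpi limma called no gene at all, without replicate 1 it called 1 member and 2425 genes, and without control replicate 1 of 3 dpi it called 9 members.

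**Figure D2:**
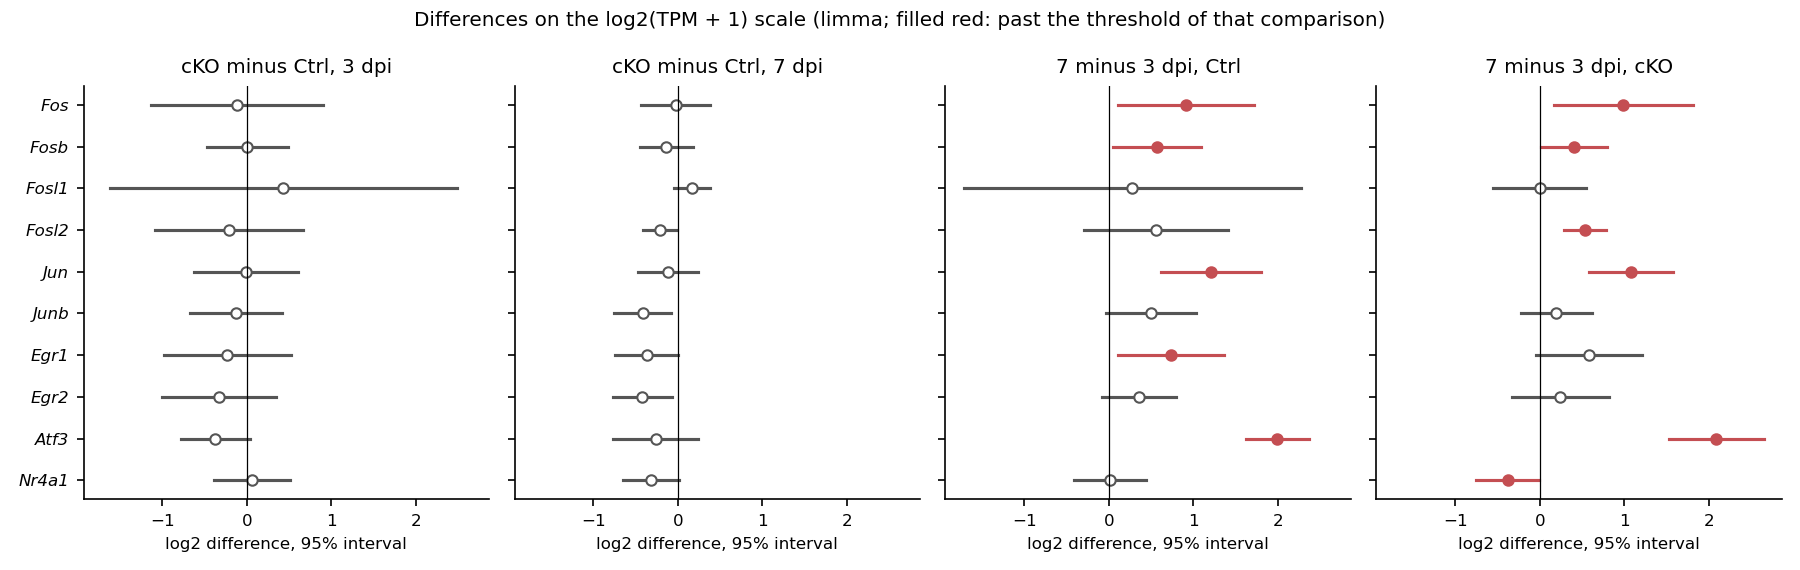
Log2 difference of each of the 10 genes (x axis, log2 of scaled TPM + 1) with its 95% interval from limma in 4 comparisons; filled red points passed the threshold of that comparison. No point is filled in the genotype comparisons, 5 are in control FAPs between days and 6 in Osr1cKO FAPs, where Nr4a1 lies below 0.

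In Osr1cKO FAPs 5 members rose and 1 fell between the days, where limma called 56.3% of 16279 genes, 32.3% higher and 24% lower. Atf3 rose by 2.09 (SE 0.222, adjusted p = 0.00259), a 4.25-fold step. Jun rose 2.11-fold, by 1.08 (SE 0.195, adjusted p = 0.00991). Fosl2 rose by 0.54 (SE 0.0981, adjusted p = 0.0102), Fos by 0.99 (adjusted p = 0.0548) and Fosb by 0.41 (adjusted p = 0.0792). Nr4a1 fell by 0.38 on the log2 scale (SE 0.148, adjusted p = 0.0854 by limma). Egr1 was at 0.58 (adjusted p = 0.107), Egr2 at 0.24, Junb at 0.19 and Fosl1 at 0.00. The median was 0.47, against 0.10 over all genes. Deposited TPM was higher without overlap for 6 members, against 40.6% of all genes, and lower for Nr4a1, against 36.5%. The calls for Atf3 and Jun held in all 8 other settings with every library and in all 4 fits that left a library out, that for Fosl2 in 7 of 8 and 4 of 4, that for Nr4a1 in 6 of 8 and 3 of 4, that for Fos in 7 of 8 and 2 of 4, and that for Fosb in 4 of 8 and 1 of 4.

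Whether the step between days differed between genotypes was tested as an interaction over the 8 libraries, and limma and limma-voom called no member. Of all 17371 genes, 0% passed an adjusted p under 0.05 and 6.87% had an unadjusted p under 0.05; no member did. Nr4a1 had the smallest p of the members, 0.119, with a difference between the 2 steps of -0.38 (95% interval -0.89 to 0.13). The interval for Atf3 ran from -0.58 to 0.78 around 0.10, and that for Fos from -1.07 to 1.24. The call for Fosl2 and for Nr4a1 in Osr1cKO alone is thus not shown to differ from control, where Fosl2 was at 0.56 and Nr4a1 at 0.01.

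Ratios within a library do not depend on scaling between libraries. Jun to Junb was 0.552 and 0.910 in control and 0.822 and 0.725 in Osr1cKO FAPs at 3 dpi. At 7 dpi it was 1.17 and 1.14 in control and 1.43 and 1.42 in Osr1cKO. Junb was thus the more abundant of the pair in every library at 3 dpi and Jun in every library at 7 dpi, with the Osr1cKO pair above the control pair. Atf3 to Jun was 0.353 and 0.296 in control and 0.242 and 0.259 in Osr1cKO at 3 dpi, and 0.551 and 0.568 in control and 0.447 and 0.572 in Osr1cKO at 7 dpi. Nr4a1 to Fos ranged from 0.390 to 0.818 at 3 dpi and from 0.230 to 0.304 at 7 dpi. The ratios were chosen after the levels were seen and are given without a test.

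**Figure D3:**
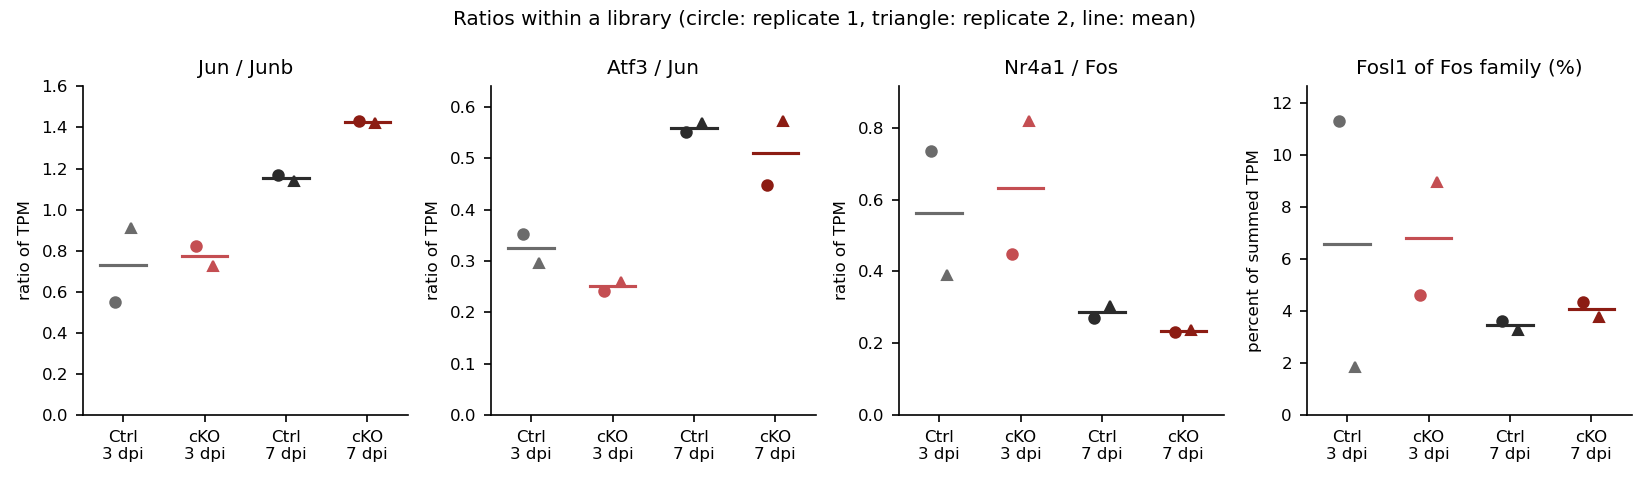
Ratios of TPM within each library, and the share of Fosl1 in the summed TPM of Fos, Fosb, Fosl1 and Fosl2 (y axes, linear from 0), by group, with a circle for replicate 1, a triangle for replicate 2 and a line at the mean. Jun to Junb lies below 1 in the libraries at 3 dpi and above 1 at 7 dpi, highest in Osr1cKO FAPs at 1.43 and 1.42.

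Relatives of the members did not all move with them. The counts for this and the other lists between days stand beside 28% of all genes called higher and 22.3% lower in control, and 32.3% and 24% in Osr1cKO FAPs. Counts between genotypes stand beside 2.2% of all genes called higher and 4.08% lower at 3 dpi. At 7 dpi 5.1% of all genes were higher and 6.02% lower at an unadjusted p under 0.05 with a fold over 1.2. Of 18 further genes of the AP-1, Maf, Egr and Nr4a families, 11 rose and 3 fell between days in control FAPs and likewise 11 and 3 in Osr1cKO FAPs, with medians of 0.42 and 0.47. Jund, the third Jun gene, was at 828 and 516 TPM in control against 1138 and 974 TPM in Osr1cKO FAPs at 3 dpi, and at 1501 and 1662 TPM and 1411 and 1534 TPM at 7 dpi. It rose in both genotypes, by 1.48 in control (adjusted p = 0.0143) and 0.55 in Osr1cKO (adjusted p = 0.033, limma). The difference between these steps was -0.92 (SE 0.318, interaction, unadjusted p = 0.0233, limma adjusted p = 0.682). Egr4 fell in both, by 2.23 and 2.24 on the log2 scale, with limma adjusted p = 0.0197 and 0.00233. Egr3 rose by 0.38 in control (limma adjusted p = 0.0494) and was at -0.11 in Osr1cKO, and the difference between these steps had an unadjusted p = 0.102 (limma, interaction).

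Nr4a3, an orphan receptor of the same family as Nr4a1, was at 110 and 97.3 TPM in control against 145 and 169 TPM in Osr1cKO FAPs at 3 dpi, a log2 difference of 0.57 (SE 0.136, unadjusted p = 0.00847, adjusted p = 0.771 by limma). At 7 dpi it was at 101 and 105 TPM in control against 87.4 and 102 TPM in Osr1cKO, a difference of -0.26. Between days Nr4a3 fell by 0.65 in Osr1cKO FAPs (limma adjusted p = 0.00847) and was at 0.20 in control (adjusted p = 0.203). The difference between these steps was -0.84 (SE 0.156, interaction, unadjusted p = 0.000996, limma adjusted p = 0.465). Nr4a2 ranged from 118 to 188 TPM with 0.33 and 0.15 in the 2 genotype comparisons, neither called. At 3 dpi 1 of 17 relatives tested was called higher (Nr4a3) and 1 lower (Batf2). At 7 dpi none of 18 was called, and Mafk and Maff, small Maf proteins that have no transactivation domain, were lower at an unadjusted p, by -0.40 (unadjusted p = 0.00147, limma adjusted p = 0.217) and -0.36 (unadjusted p = 0.00342, limma adjusted p = 0.246).

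Other immediate early genes resembled the members in direction. Of 40, 23 rose and 3 fell between days in control and 25 and 3 in Osr1cKO FAPs, with medians of 0.56 and 0.51. Gadd45a, a growth arrest gene, rose by 1.94 in control and 1.59 in Osr1cKO (limma adjusted p = 0.00407 and 0.00126). At 3 dpi 2 of 40 were called lower in Osr1cKO, Klf10 and Ier5l, against 4.08% of all genes, and the median was -0.17. At 7 dpi 34 of 40 were below 0 with a median of -0.17, and none was called. Where p was left unadjusted, 11 were lower and 1 higher, against 6.02% and 5.1% of all genes. The lowest p values were those of Cebpd at -0.64 (229 and 250 TPM in control, 167 and 170 TPM in Osr1cKO, limma adjusted p = 0.146), Arc at -0.42 and Socs3, the feedback inhibitor of cytokine receptors, at -0.60 (adjusted p = 0.243).

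Upstream of the early genes, 28 factors and kinases of the MAP kinase, CREB and serum response factor routes had a median of 0.00 at 3 dpi and -0.04 at 7 dpi between genotypes, with 1 called lower at 3 dpi (Map2k1) and none at 7 dpi. Between days 7 were higher and 6 lower in control and 7 and 7 in Osr1cKO FAPs, shares near those of all genes. Srf, which encodes serum response factor, fell by 0.60 in control (limma adjusted p = 0.0155) and by 0.86 in Osr1cKO (adjusted p = 0.00214) from 112 and 110 TPM, and from 125 and 120 TPM, at 3 dpi. Map2k1, the kinase upstream of ERK, fell by 1.29 in control and 0.78 in Osr1cKO.

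Of 17 feedback phosphatases and corepressors, 6 rose and 2 fell in control and 8 rose and 1 fell in Osr1cKO FAPs between days. Dusp1, a MAP kinase phosphatase that is itself an early gene, rose by 1.01 and 1.30 (limma adjusted p = 0.0101 and 0.0133). None was called between genotypes on either day. At 7 dpi Spry1, an inhibitor of receptor tyrosine kinase signals, was at 64.1 and 67.9 TPM in control against 39.3 and 43.7 TPM in Osr1cKO FAPs, a difference of -0.79 (unadjusted p = 9.01e-05, limma adjusted p = 0.115), with Spry4 at -0.53 and Spry2 at -0.28. Of the 17, 4 were lower and 2 higher at an unadjusted p under 0.05, with a median of -0.03. The 2 higher were the phosphatase genes Dusp4, at a mean of 23.4 ± 6.47 TPM (SD, n = 2) in control against 40.6 ± 2.36 TPM in Osr1cKO FAPs, a difference of 0.66 (limma adjusted p = 0.314), and Dusp14, at 0.58 (limma adjusted p = 0.332).

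Textbook AP-1 targets did not follow the members as a block. Between days 5 of 16 rose and 6 fell in control, and 3 rose and 6 fell in Osr1cKO FAPs, with medians of 0.05 and -0.08. Mmp13, a collagenase gene, rose by 3.87 in control (limma adjusted p = 0.00466) and 5.23 in Osr1cKO (adjusted p = 0.00244), while Ccnd1, encoding cyclin D1, fell by 2.81 and 2.26 and Il11 fell by 2.74 in control. At 3 dpi Lif was called higher in Osr1cKO (156 and 183 against 264 and 248 TPM, unadjusted p = 0.00868, limma adjusted p = 0.771) and Ccl2 lower (3608 and 3556 against 2153 and 2173 TPM, limma adjusted p = 0.771). At 7 dpi none was called. At an unadjusted p under 0.05 with a fold over 1.2, 5 of the 16 were higher and 4 lower, against 5.1% and 6.02% of all genes. Mmp10 was at 1.56 (unadjusted p = 0.000448, limma adjusted p = 0.182) and Il6 at -0.72 (unadjusted p = 0.000834, limma adjusted p = 0.217).

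Heat shock genes, which report on protein stress and respond to handling as well as to injury, are given as a list whose level can move with that of early genes. Of 14, 9 rose and none fell in control and 9 rose and 2 fell in Osr1cKO FAPs between days, with medians of 1.2 and 0.79. Hspa1a was at 110 and 84.2 TPM in control against 78.9 and 78.0 TPM in Osr1cKO FAPs at 3 dpi. Its level at 7 dpi was 947 and 680 TPM and 392 and 601 TPM. In the genotype comparison at 7 dpi 13 of 14 were below 0 with a median of -0.43, and none was called after adjustment. Of them, 10 were lower where p was left unadjusted, against 6.02% of all genes. At 3 dpi 2 were called lower, against 4.08% of all genes. Hspa1a and Hspa1b are near-identical copies whose reads can be split, and their separate values are uncertain. The part of these genes' difference in that of the members was not tested.

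**Figure D4:**
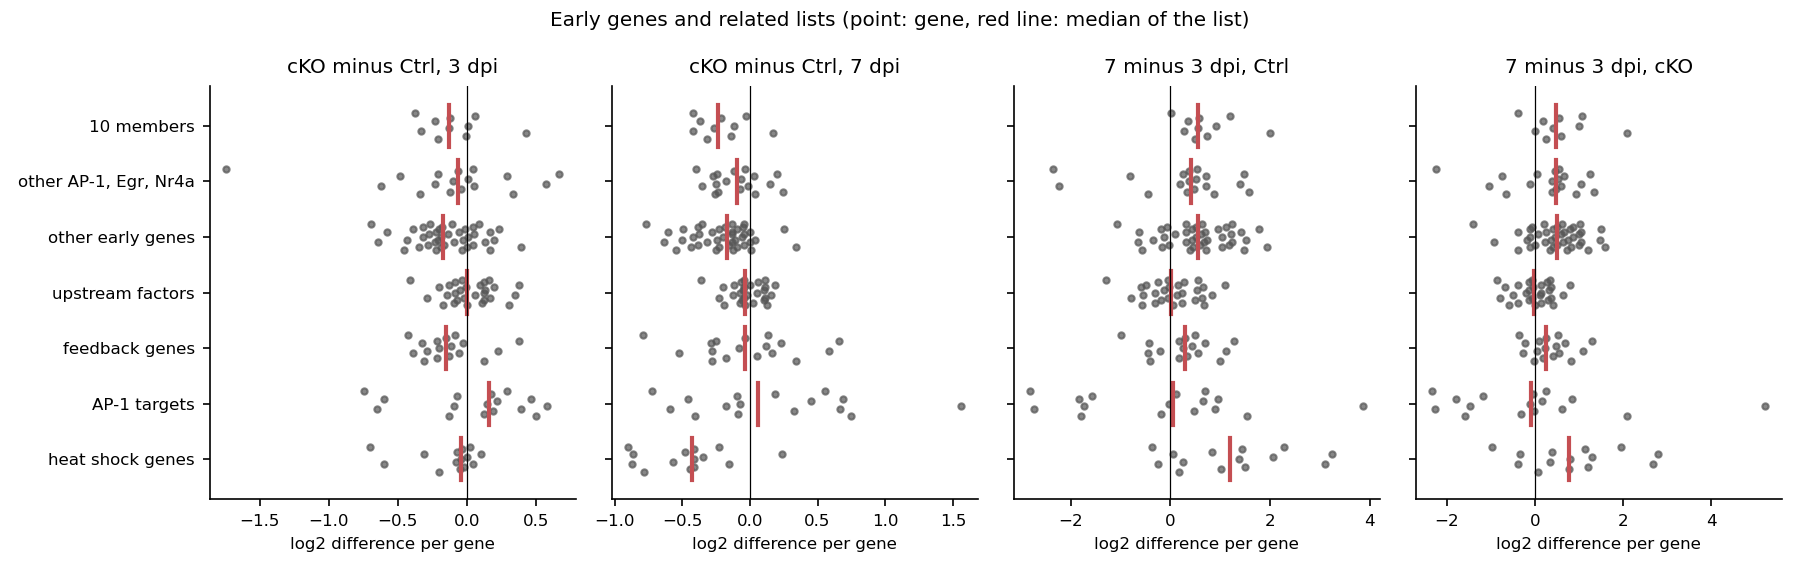
Log2 difference of each tested gene (point) in the 10 members and 6 related lists (y axis) for 4 comparisons (x axis, log2 of scaled TPM + 1; each panel has its own range), with the median of each list as a red line. Between days the medians of the members, other early genes and heat shock genes lie to the right of 0, and in the genotype comparison at 7 dpi the heat shock median lies at -0.43 and that of the members at -0.24.

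Genes most like the mean pattern of the members over the 8 libraries, among 10376 with a mean of at least 5 TPM, were Scmh1 (Pearson r 0.991), Ubl3 (0.983), Marf1 (0.978), Fxyd1 (0.978) and Pard3b (0.97). Scmh1 ranged from 11.5 to 14.4 TPM at 3 dpi and from 14.9 to 19.3 TPM at 7 dpi, where Osr1cKO replicate 1 was the lowest, as it was for 8 members. Fxyd1 had 66.9 and 76.9 TPM in control against 48.7 and 66.2 TPM in Osr1cKO at 7 dpi. The libraries share the step between days, so many genes correlate with it.

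The identity of the cells bears on these levels, since in a sorted population fewer cells of a type and less RNA per cell cannot be told apart. The 12 FAP markers summed to 38000 to 53100 TPM at 3 dpi and 61500 to 69100 TPM at 7 dpi. The largest part was Col1a1, at 12400 to 28080 TPM. The markers did not move together: in control 7 were higher and 5 lower at 7 dpi without overlap, against 33.5% and 41.4% of all genes. In Osr1cKO FAPs 6 were higher and 5 lower, against 40.6% and 36.5%. Ly6a and Pdgfra were lower in both, with Ly6a in control at 5407 and 4232 TPM at 3 dpi and 1544 and 1789 TPM at 7 dpi. Those of macrophages and neutrophils summed to 13.9 to 27.0 TPM at 3 dpi and 54.7 to 96.3 TPM at 7 dpi, with Ptprc at 0.216 TPM or less, those of endothelial and mural cells to 19.9 to 47.9 and 80.6 to 133 TPM, those of muscle stem cells and myofibers to 15.1 to 22 and 61.9 to 113 TPM, and those of lymphoid and erythroid cells to 5.40 to 13.2 and 20.4 to 62.8 TPM. Pax7, of muscle stem cells, was at 0 in 3 of the 4 libraries at 3 dpi. Control replicate 1 of 7 dpi stood apart, with Pax7 at 2.30 TPM against 0.170 to 0.444 TPM in the other 3 libraries of that day, Myog, of differentiating myoblasts, at 14.1 against 1.94 to 3.34 TPM, and Cd3e, of T cells, at 4.28 against 0.0666 TPM or less. Without it the median over the members at 7 dpi between genotypes was -0.23, and without control replicate 2 of 7 dpi it was -0.26. Schwann and tenocyte markers summed to 36.0 to 58.8 TPM at 3 dpi and to 107 and 171 TPM in control against 324 and 418 TPM in Osr1cKO FAPs at 7 dpi, mostly Tnmd, a tendon gene. The sums of the FAP markers and of these other cell types were higher at 7 dpi than at 3 dpi without overlap, as were Fos, Jun and Atf3, and their part in that step was not tested.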

How the data were processed

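Poly(A) RNA of sorted FAPs was sequenced as stranded libraries, 2 per group. The authors aligned reads to mm10 with STAR, normalized with DESeq2 and deposited TPM per gene symbol; the counter, its annotation and its strand setting are not given in the sources used here. Of 55385 entries, 109 repeats of a symbol were left out. With exon lengths of mouse GENCODE release M21, 98.65% to 98.91% of the low values (under 50 fragments) came out whole within 0.02. This gave 36516619 to 51096552 fragments per library. Genes with at least 10 fragments in 2 libraries and 15 in all were tested (mean TPM of at least 1 where no length was matched). Libraries were brought to 1 scale with a 30% trimmed mean of their log ratios, and limma 3.58.1 (R 4.3.3, trended eBayes) was fitted to log2(TPM + 1), which understates changes of low genes, on the 4 libraries compared or on 8 for the interaction, with Benjamini-Hochberg adjustment over all genes; scripts were tested on simulated data. With 2 libraries per group, p-values measure the spread between those samples, and at 7 dpi between pools. The members and lists were chosen with earlier results of these data known. The text names the 10 members and, of each other list, at most 3 genes of smallest p among those that did not overlap. Jund, Egr3, Egr4, Nr4a2, Nr4a3, Srf, Dusp1 and Hspa1a were also named where shown after their values were seen. So were Col1a1, Pdgfra, Il11, Tnmd, Dusp4, Dusp14, Pax7, Myog, Cd3e and Sox10. Alternatives were other scalings, a pseudocount of 0.1, other filters, limma-voom on recovered fragments, a replicate block and leaving out each library.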

Additional observations from a re-analysis of the deposited data

How the results depend on the processing

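No member was called between genotypes at 7 dpi or in the interaction under any other setting with an adjusted p, and 3 were called at 7 dpi at an unadjusted p. At 3 dpi the number called stayed at 0 but for fits without 1 library, which gave 0 to 1, and a replicate block with crossed numbers, chosen after seeing the data, which gave 1. At 7 dpi fits without 1 library gave 0. Between days in control, 5 calls became 2 with unscaled TPM, 2 with median of ratios scaling, 2 with no filter and 2 with a replicate block; they ranged from 0 to 9 without 1 library, and the other settings gave 5 or 6. In Osr1cKO, 6 calls became 3 with no filter and ranged from 3 to 8 without 1 library; the block gave 4. The interaction gave 0 without any library. Same-numbered libraries deviated together with r = -0.13 at 3 dpi, 0.0639 at 7 dpi, -0.16 in control and -0.0859 in Osr1cKO, so the replicate numbers were not shown to pair the libraries. The causes of these changes were not tested.

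Directions turned for differences near 0. With unscaled TPM, median of ratios scaling and the fit of 8 libraries Jun at 3 dpi was at 0.0099, 0.012 and 0.0076. With unscaled TPM, Fos and Jun were at 0.11 and 0.020 at 7 dpi, Nr4a1 between days in control at -0.19 (-0.14 with median of ratios), and Fosl2, Jun and Egr2 in the interaction at 0.12, 0.0099 and 0.027. Fosl1 between days in Osr1cKO was at 0.032 with limma-voom and 0.017 in the fit of 8 libraries. Without 1 library, the log2 differences at 3 dpi ranged from -0.57 to 0.33 for Fos, -0.057 to 0.063 for Fosb, -0.78 to 1.64 for Fosl1, -0.72 to 0.29 for Fosl2, -0.21 to 0.19 for Jun, -0.29 to 0.023 for Junb, -0.54 to 0.085 for Egr1 and -0.065 to 0.18 for Nr4a1. At 7 dpi they ranged from -0.15 to 0.10 for Fos and -0.55 to 0.028 for Atf3. Between days in control they ranged from -0.94 to 1.45 for Fosl1 and -0.12 to 0.093 for Nr4a1, and in Osr1cKO from -0.34 to 0.31 for Fosl1 and -0.060 to 0.52 for Egr2. In the interaction they ranged from -0.35 to 0.52 for Fos, -1.46 to 0.92 for Fosl1, -0.49 to 0.48 for Fosl2, -0.34 to 0.10 for Jun, -0.45 to 0.15 for Egr1, -0.39 to 0.19 for Egr2 and -0.19 to 0.39 for Atf3. Where a fit left 1 library in a group, that library was assumed to vary like the other group. Each member had at least 2117 recovered fragments in every library.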
